A study of Mus musculus with 6 samples.

Results

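The 42 genes described here encode the enzymes that make and interconvert amino acids, run the folate and methionine cycles that carry one-carbon units, and make polyamines. They were listed by symbol for their function, with earlier results of these data known. All 42 were found once each among the 46983 genes of the deposited count table. The cells are mouse leukemia cells driven by MLL-AF9, a fusion oncogene of acute myeloid leukemia. The first group came from Alox5-/- mice on the C57BL/6J background and the other from wild-type (WT) C57BL/6J mice, with 3 libraries each. In both groups marrow stem and progenitor cells (sorted as lineage negative and positive for Sca-1 and c-Kit) had received MLL-AF9 by retrovirus, and per the series' design text transduced cells expressing GFP had been transplanted into irradiated C57BL/6J recipients. All samples were untreated, and poly-A RNA was read after SMARTer cDNA amplification. The sources used here do not give ages. Each genotype bears 1 cell line name in the labels, so the genotype and the line cannot be told apart. The labels number 3 biological replicates per genotype without naming the animals, and p-values then reflect only how far these samples vary, which may be technical.

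Serine is made from a glycolytic intermediate in 3 enzymatic steps. Its hydroxymethyl carbon enters the folate pool, as parallel sets of enzymes in mitochondria and cytosol pass one-carbon units on to purines, thymidylate and methionine. Asparagine, proline, alanine and aspartate draw their carbon or nitrogen from glutamate and from citric acid cycle intermediates. In many mammalian cells several of these genes are activated by ATF4, the transcription factor of the integrated stress response, when amino acids run short. Rapidly dividing leukemia cells have a high demand for serine, asparagine and polyamines.

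Gene counts per library were 28985597 to 38695948. The Alox5 transcript, the target of the knockout, averaged 64.2 ± 1.87 CPM in Alox5-/- against 105 ± 1.87 CPM in WT libraries (CPM, the count scaled to an equal library total; SD, n = 3 each). It was thus still counted in Alox5-/- cells, and the sources used here do not say which part of the gene the allele alters. Alox5-/- replicate 2 stood apart from its group: chi-square per degree of freedom was 8.53 and 9.65 for its pairs, against 2.11 to 4.79 for the other pairs within groups and 33.1 to 46.7 between groups. All 8 leukemia and progenitor markers were detected, and their sum was 1300 to 1320 CPM in Alox5-/- and 1320 to 1390 CPM in WT. Of these Ptprc, Cd34 and Hoxa9 were called higher and Kit, Itgam and Mpo lower. Mpo, a granule enzyme of myeloid precursors, moved most, to 65.6 ± 7.76 CPM in Alox5-/- against 197 ± 13.4 CPM in WT. Ly6a, which encodes Sca-1, was at 0.763 ± 0.158 CPM in Alox5-/- against 1.06 ± 0.169 CPM in WT and was not called. The T cell genes Cd3e and Cd3g and the macrophage gene Marco were at 0 in all libraries. The summed level of 5 mature neutrophil markers was 16.0 to 18.1 CPM in Alox5-/- and 22.0 to 22.8 CPM in WT, that of 4 macrophage markers 31.5 to 34.3 and 41.0 to 44.7 CPM, and that of 5 erythroid and megakaryocyte markers 1.85 to 2.02 and 3.82 to 4.43 CPM, in the same order. Of the neutrophil markers Mmp8, Mmp9 and Camp were called lower and Ly6g higher (6.06 ± 0.343 CPM in Alox5-/- against 4.22 ± 0.579 CPM in WT). Summed B, T and NK markers were 15.1 to 19.7 CPM in Alox5-/- and 10.1 to 14.4 CPM in WT, nearly all of it Nkg7, and summed stromal and endothelial markers were 194 to 199 and 174 to 175 CPM, nearly all of it Pecam1. The part of these shifts in the results was not tested, and in bulk samples fewer cells of a type and less RNA per cell cannot be told apart.

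In Alox5-/- cells the enzymes that make asparagine, proline, alanine, cysteine and phosphoenolpyruvate, and the last step of serine synthesis, were higher, while the methionine cycle, spermidine synthesis, the argininosuccinate synthase gene and the cytosolic folate enzyme Mthfd1 were lower. Of the 42 genes, 40 passed the expression filter; 13 were called higher, 13 lower and 14 not called at an edgeR adjusted p below 0.05. Of all 13705 tested genes 53.8% passed the same threshold, 26.8% upward and 27.0% downward. A change of at least 1.5-fold was rarer: 8 of the 40 (20%) were higher by that much, against 7.6% of all tested genes, and 2 were lower, against 3.94%. These 10 were, from the largest rise to the deepest fall, Gpt2, Aldh1l2, Cth, Pck2, Psph, Pycr1, Asns, Bcat1, Ass1 and Cbs. The 1.5-fold rule was chosen after the values were seen, so its shares are a description only. Bcat1 (1.51-fold) and Asns (1.53-fold) just passed it, and Got1 (1.47-fold) and Aldh18a1 (1.45-fold) just missed it. Groups were free of overlap for 27 of the 40, against 60.0% of all tested genes. The median log2 fold change was 0.00 over the 40 and 0.00 over all tested genes. Cbs passed the filter only through the WT libraries; without it 12 of 39 were lower, 1 of them by 1.5-fold, and groups were free of overlap for 26. Without Alox5-/- replicate 2, 14 were called higher and 12 lower, and again 8 were higher and 2 lower by 1.5-fold. Arg2, the mitochondrial arginase, had 2 counts in all, and Gldc, the decarboxylase of the glycine cleavage system, had 1, and neither was tested.

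**Figure D1:**
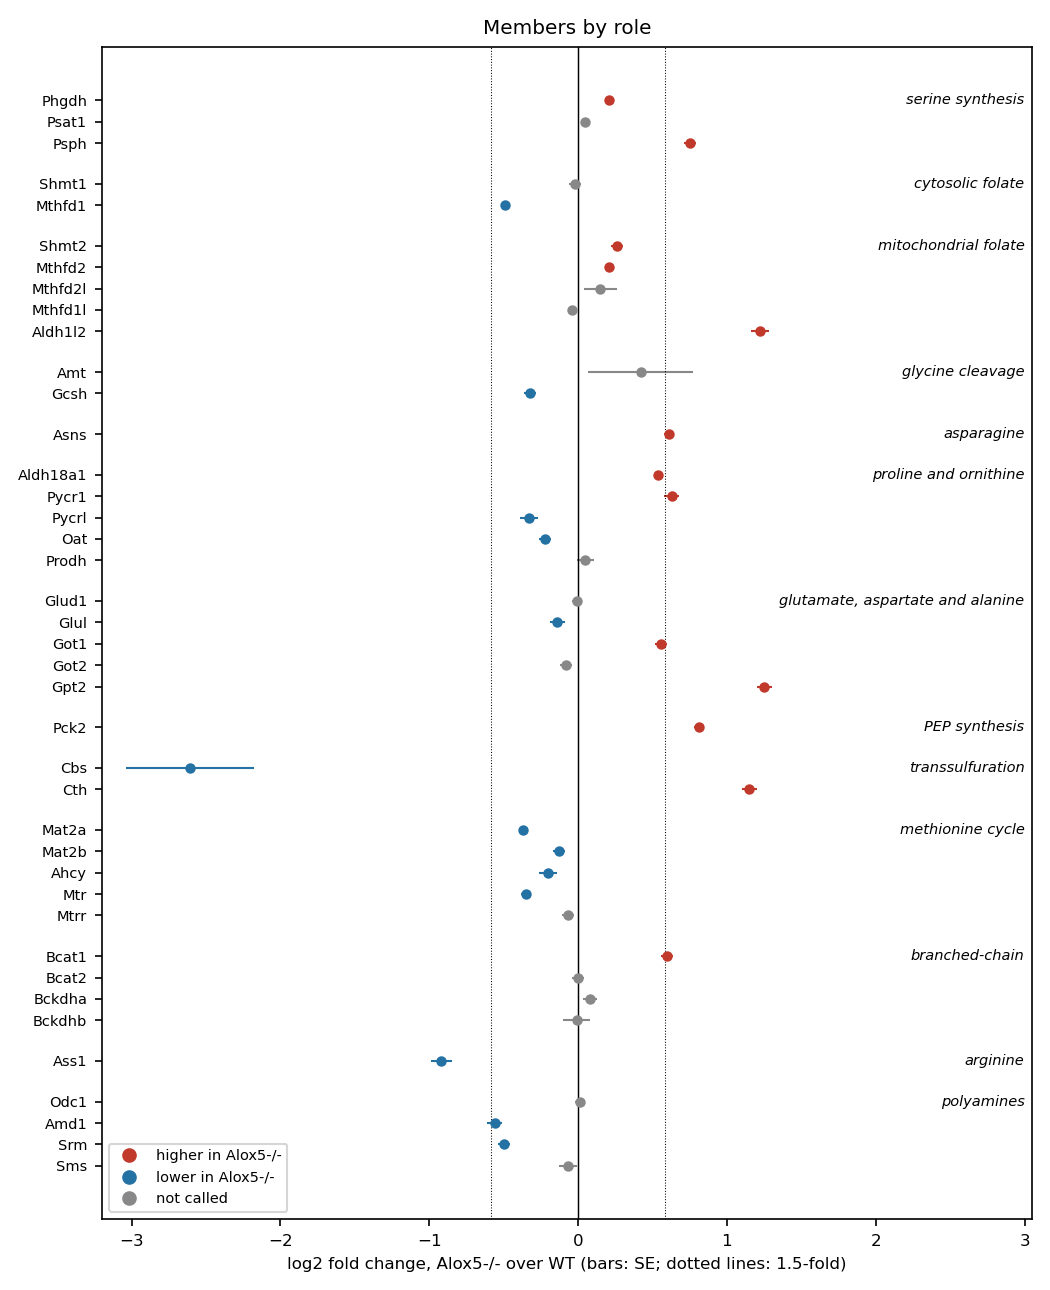
Log2 fold change of each of the 40 tested genes in Alox5-/- over WT (x axis; points coloured by call, bars SE, dotted lines 1.5-fold), grouped by role down the page. Rises past 1.5-fold are spread over serine, folate, asparagine, proline, alanine, cysteine and branched-chain enzymes and Pck2, whereas the methionine cycle lies left of 0 throughout.

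**Figure D2:**
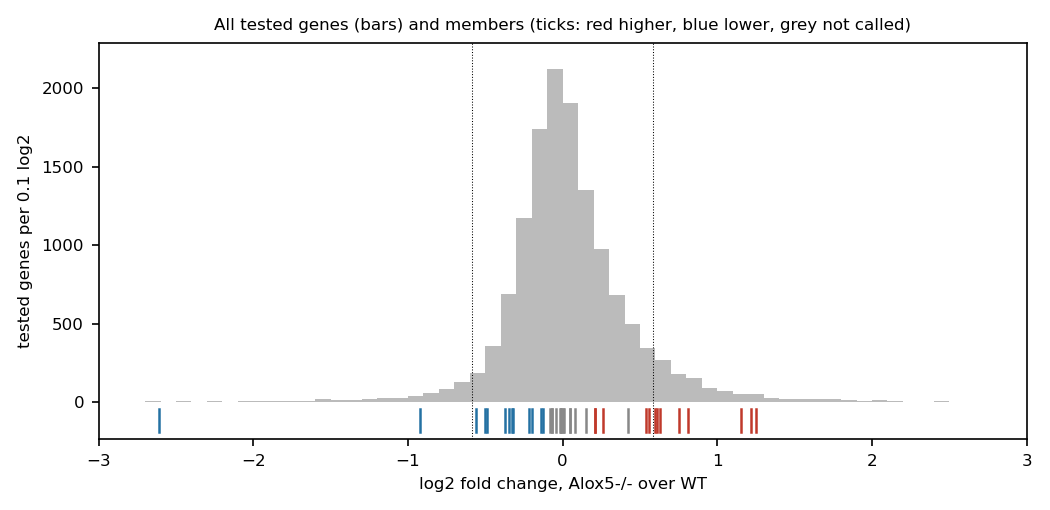
Number of tested genes per 0.1 log2 fold change (grey bars, 13705 genes, of which 47 lie beyond the axis), with the 40 tested genes of amino acid and one-carbon metabolism as ticks below. The red ticks right of the upper dotted line are the 8 genes higher by at least 1.5-fold (20%, against 7.6% of all tested genes). This 1.5-fold rule was chosen after the values were seen.

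Among the genes called higher, 4 carried the core letters of the C/EBP-ATF response element, TGATGNAA (N is any base), the composite site through which ATF4 acts, in the promoter window given by RefSeq (GRCm38.p6, 250 bases before to 50 after a gene's start). They are Asns, Pycr1, Got1 and Pck2. Of the 42 genes 37 had an entry; Aldh1l2, Pycrl, Cth, Arg2 and Srm did not. The letters were sought on both strands. They stood in the windows of 4 of 11 genes called higher, 0 of 11 called lower and 0 of 14 not called. Over all 37 genes with an entry this was 4 (10.8%), against 4.51% of the 27025 genes in the table. These 4 genes were picked for holding the letters, so that they share them is no finding. Their sites are shown with 10 bases on either side, read on the strand where the letters run TGATG, with the match in capitals:
Asns: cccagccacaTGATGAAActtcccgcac
Pycr1: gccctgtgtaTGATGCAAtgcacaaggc
Got1: gaggcttgtaTGATGCAAccaatgcaat
Pck2: tgtaagatacTGATGTAActttgaaggc

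In Got1 and Pck2 the letters lie on the strand opposite to the gene. The match starts 103 bases before the annotated start in Pycr1 and Pck2, 102 before it in Got1 and 23 before it in Asns. The whole windows, on the strand of the gene, with the match in capitals, are:
Asns (chr6:7693160-7693459, minus strand): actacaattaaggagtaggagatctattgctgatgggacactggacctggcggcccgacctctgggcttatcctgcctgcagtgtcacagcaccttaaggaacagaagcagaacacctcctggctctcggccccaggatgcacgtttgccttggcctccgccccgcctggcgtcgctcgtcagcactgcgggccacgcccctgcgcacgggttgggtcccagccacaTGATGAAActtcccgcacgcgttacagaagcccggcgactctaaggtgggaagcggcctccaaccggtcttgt
Pycr1 (chr11:120643699-120643998, minus strand): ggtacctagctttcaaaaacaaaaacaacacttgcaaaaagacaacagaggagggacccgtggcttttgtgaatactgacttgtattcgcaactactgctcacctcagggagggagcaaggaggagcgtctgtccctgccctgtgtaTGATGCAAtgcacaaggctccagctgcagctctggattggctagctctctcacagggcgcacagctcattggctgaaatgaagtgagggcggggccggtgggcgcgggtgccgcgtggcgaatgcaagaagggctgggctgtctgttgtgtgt
Got1 (chr19:43524556-43524855, minus strand): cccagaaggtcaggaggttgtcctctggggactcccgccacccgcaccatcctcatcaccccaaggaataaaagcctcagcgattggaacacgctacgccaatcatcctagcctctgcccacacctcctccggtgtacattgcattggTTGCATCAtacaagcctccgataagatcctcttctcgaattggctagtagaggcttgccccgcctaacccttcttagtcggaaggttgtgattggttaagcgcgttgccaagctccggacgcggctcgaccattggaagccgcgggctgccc
Pck2 (chr14:55540016-55540315, plus strand): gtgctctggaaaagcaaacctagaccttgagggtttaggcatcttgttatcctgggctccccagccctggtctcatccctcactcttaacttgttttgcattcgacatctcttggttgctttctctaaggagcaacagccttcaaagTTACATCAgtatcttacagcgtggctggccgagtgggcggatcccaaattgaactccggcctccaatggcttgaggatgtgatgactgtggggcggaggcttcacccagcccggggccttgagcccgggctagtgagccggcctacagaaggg

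A match is a description of letters, not a bound site. The E-box letters CACGTG, which MYC and related factors can bind, were in 4 of the 37 windows (10.8%), against 8.09% of all genes. These were Aldh18a1, called higher, Ass1 and Cbs, called lower, and Sms, not called. The level of Atf4 itself was 1010, 1040 and 1030 CPM in Alox5-/- and 964, 917 and 929 CPM in WT, 1.1-fold higher (log2 change by edgeR 0.13, SE 0.03, adjusted p = 0.00208). Myc was 352 ± 19.0 CPM in Alox5-/- against 292 ± 12.2 CPM in WT (log2 change by edgeR 0.27, SE 0.04, adjusted p = 5.48e-05).

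Serine synthesis was higher at its first and last enzymes. Psph, the phosphatase that releases serine (chromosome 5, 129765558 to 129787449, mm10), was 84.3, 86.5 and 85.6 CPM in Alox5-/- and 51.9, 49.3 and 51.1 CPM in WT. Its log2 fold change was 0.75 (SE 0.04, edgeR adjusted p = 4.83e-10), or 1.68-fold, with a wide gap between the groups. Of its 50-base words 8.8% also occur in another gene, the oppositely oriented Cct6a. Phgdh, the dehydrogenase that commits carbon to the pathway, was 138, 142 and 139 CPM in Alox5-/- and 123, 118 and 122 CPM in WT, a rise of 1.15-fold (edgeR adjusted p = 7.24e-05). Phgdh shares 47.8% of its 50-base words with processed pseudogenes, so its counts are less certain. Psat1, the aminotransferase between them, had the highest level per length of the 3 (228 CPM per kilobase of exonic sequence in Alox5-/- and 221 in WT). In CPM it was 990, 940 and 987 CPM in Alox5-/- and 942, 938 and 934 CPM in WT. Its groups overlapped and it was not called (log2 change by edgeR 0.05, SE 0.03, adjusted p = 0.179).

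The mitochondrial folate enzymes were higher where they changed, and the cytosolic ones were not. Aldh1l2, which oxidises formyl-tetrahydrofolate in mitochondria (chromosome 10, 83487450 to 83534140), was 50.6, 51.7 and 53.5 CPM in Alox5-/- and 24.4, 22.0 and 20.5 CPM in WT. This was 2.34-fold higher (log2 change by edgeR 1.22, SE 0.06, adjusted p = 3.19e-10). Exons of D10Wsu102e on the opposite strand cover 14.1% of its exonic bases. Shmt2, which splits serine into glycine and a one-carbon unit, was 678, 707 and 679 CPM in Alox5-/- and 598, 540 and 586 CPM in WT. Mthfd2, the dehydrogenase and cyclohydrolase that follows it, was 586, 611 and 592 CPM in Alox5-/- and 510, 529 and 504 CPM in WT. Both rose by little, 1.2-fold and 1.16-fold (edgeR adjusted p = 4.1e-05 and 4.19e-05), and every Alox5-/- library lay above every WT library for each. Mthfd1l, which releases formate from mitochondria, was 163 ± 1.22 CPM in Alox5-/- against 168 ± 4.96 CPM in WT, and Mthfd2l, the low-level relative of Mthfd2, 4.09 ± 0.163 and 3.71 ± 0.303 CPM. Neither was called.

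In the cytosol Mthfd1, the trifunctional enzyme that takes up formate, was 122, 118 and 118 CPM in Alox5-/- and 165, 167 and 170 CPM in WT. It fell 1.40-fold (log2 change by edgeR -0.49, SE 0.03, adjusted p = 1.1e-08). Shmt1, the cytosolic serine hydroxymethyltransferase, was 112, 103 and 110 CPM in Alox5-/- and 108, 110 and 112 CPM in WT, with overlapping groups and no call (edgeR adjusted p = 0.618). Summed over the 5 mitochondrial members the level was 1503 ± 28.9 CPM in Alox5-/- against 1283 ± 24.2 CPM in WT, and over the 2 cytosolic members 228 ± 6.93 and 278 ± 4.39 CPM.

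The glycine cleavage system, which breaks glycine down to a one-carbon unit, carbon dioxide and ammonia, had next to no transcript of the decarboxylase and the aminomethyltransferase. Gldc had 1 count in the 6 libraries, and a count of 0 allows up to 0.0775 to 0.103 CPM. Amt, the aminomethyltransferase, had 19, 12 and 10 counts in Alox5-/- and 7, 13 and 13 counts in WT and was not called. Gcsh, the lipoyl carrier, fell to 51.0, 55.5 and 52.8 CPM in Alox5-/-, against 65.1, 66.6 and 66.5 CPM in WT (log2 change by edgeR -0.32, SE 0.04, adjusted p = 1.13e-05).

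Asparagine synthetase, one of the highest transcripts of the set per length in both groups, was higher in Alox5-/-. Asns (chromosome 6, 7675169 to 7693254), whose promoter holds the C/EBP-ATF letters nearest to its start, was 732, 730 and 762 CPM in Alox5-/- and 499, 486 and 469 CPM in WT. The log2 fold change was 0.61 (SE 0.03, edgeR adjusted p = 1.15e-09), or 1.53-fold.

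Proline synthesis from glutamate was higher in its mitochondrial steps. Aldh18a1, which makes the semialdehyde, was 378, 374 and 383 CPM in Alox5-/- and 267, 255 and 261 CPM in WT, 1.45-fold higher (log2 change by edgeR 0.54, SE 0.03, adjusted p = 2.63e-09). Pycr1, the mitochondrial reductase that completes proline (chromosome 11, 120635712 to 120643769), was 60.3, 59.6 and 58.2 CPM in Alox5-/- and 39.4, 39.7 and 36.0 CPM in WT. It was 1.55-fold higher (log2 change by edgeR 0.63, SE 0.05, adjusted p = 2.84e-08), and the groups lay far apart. Pycrl, the cytosolic reductase, went the other way, at 29.2, 29.5 and 26.8 CPM in Alox5-/- and 34.8, 34.2 and 38.3 CPM in WT (log2 change by edgeR -0.33, SE 0.06, adjusted p = 0.000197). Oat, which links ornithine to the same semialdehyde, fell 1.17-fold, to 103 ± 5.35 CPM in Alox5-/- against 121 ± 1.28 CPM in WT (edgeR adjusted p = 0.000189). Prodh, which starts proline breakdown, was 29.3 ± 1.54 CPM in Alox5-/- against 28.3 ± 1.11 CPM in WT and was not called.

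Aminotransferases of alanine and aspartate rose, except for the mitochondrial aspartate form, which was not called. Gpt2, the mitochondrial alanine aminotransferase (chromosome 8, 85492576 to 85527560), had the largest rise of the set. It was 152, 157 and 162 CPM in Alox5-/- and 72.4, 62.5 and 63.6 CPM in WT, 2.37-fold higher (log2 change by edgeR 1.25, SE 0.05, adjusted p = 4.15e-11). Got1, the cytosolic aspartate aminotransferase and another holder of the C/EBP-ATF letters, was 107, 112 and 111 CPM in Alox5-/- and 73.2, 76.4 and 74.3 CPM in WT (log2 change by edgeR 0.56, SE 0.04, adjusted p = 6.88e-09). Got2, its mitochondrial counterpart, was 193, 177 and 188 CPM in Alox5-/- and 198, 189 and 202 CPM in WT, with overlapping groups and no call (edgeR adjusted p = 0.104). Got2 shares 25.6% of its 50-base words with other genes. Glud1, glutamate dehydrogenase, was 227 ± 3.35 CPM in Alox5-/- against 229 ± 5.57 CPM in WT and was not called. Glul, glutamine synthetase, was 29.9 ± 1.55 and 33.0 ± 0.519 CPM, in the same order, called lower (log2 fold change -0.14, SE 0.05, edgeR adjusted p = 0.0298). This call of Glul was lost in 7 of 13 alternatives, among them DESeq2 (adjusted p = 0.0862) and leaving out Alox5-/- replicate 1 (0.0536) or 2 (0.149) or WT replicate 1 (0.079) or 3 (0.0823).

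Pck2, the mitochondrial enzyme that turns oxaloacetate into phosphoenolpyruvate and can feed serine synthesis (chromosome 14, 55540266 to 55551242), was 289, 296 and 287 CPM in Alox5-/- and 173, 162 and 164 CPM in WT. It was 1.75-fold higher (log2 change by edgeR 0.81, SE 0.03, adjusted p = 8.46e-11).

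**Figure D3:**
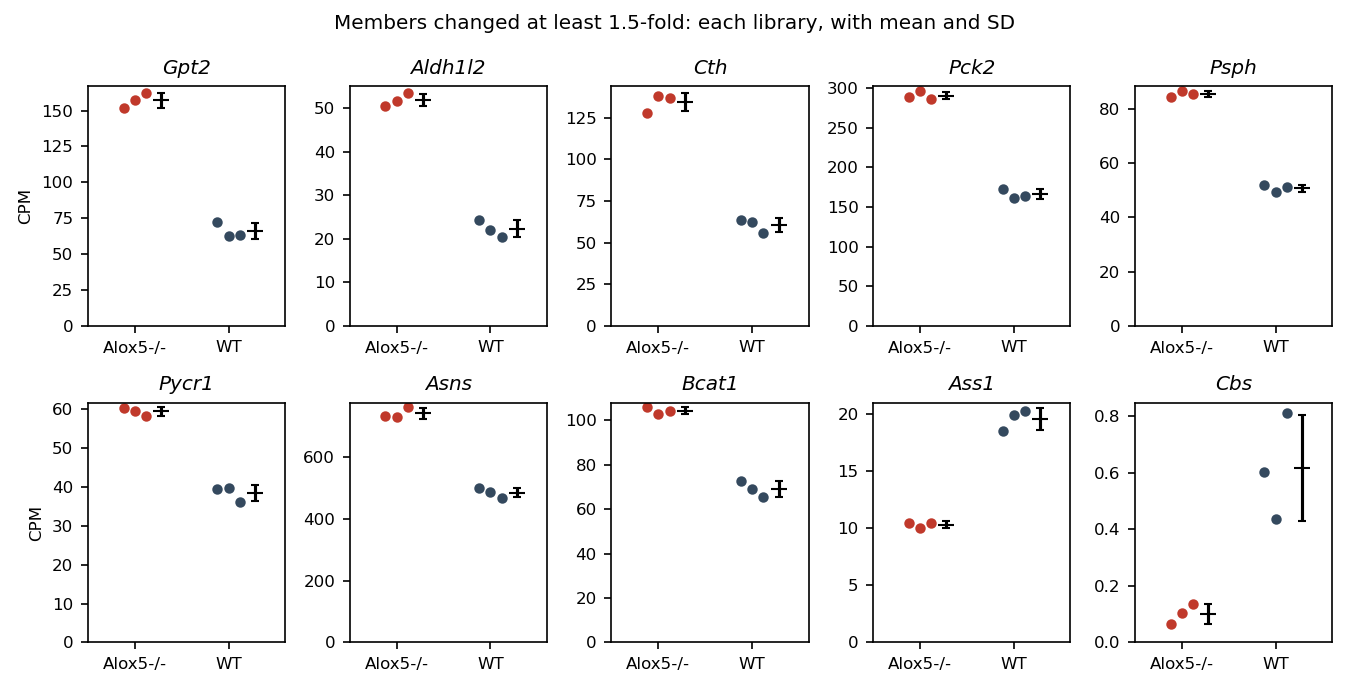
CPM in each library (y axes from 0; red points Alox5-/-, dark points WT; black marks mean and SD, n = 3 each) for the 10 genes changed by at least 1.5-fold. No panel has an overlap between the groups, and Cbs is drawn at levels below 1 CPM.

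Transsulfuration moves sulfur from homocysteine to cysteine, and its last enzyme was higher. Cth, which releases cysteine (chromosome 3, 157894248 to 157925077), was 128, 138 and 137 CPM in Alox5-/- and 63.3, 62.6 and 55.9 CPM in WT, 2.22-fold higher (log2 change by edgeR 1.15, SE 0.05, adjusted p = 6.37e-11). Cbs, the synthase that precedes it (chromosome 17, 31608894 to 31637238), was nearly silent, with 2, 3 and 4 counts in Alox5-/- and 18, 13 and 31 counts in WT. It passed the filter only through the WT libraries, where it averaged 0.618 ± 0.188 CPM, so its call is given as a description.

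The methionine cycle, which makes the methyl donor S-adenosylmethionine and recycles homocysteine, was lower in 4 of its 5 members. Mat2a, the S-adenosylmethionine synthetase, was 532, 503 and 510 CPM in Alox5-/- and 663, 685 and 644 CPM in WT, 1.29-fold lower (log2 change by edgeR -0.37, SE 0.03, adjusted p = 3.23e-07). Exons of Particl on the opposite strand cover 11.3% of its exonic bases. Mtr, methionine synthase, was 65.3, 66.8 and 66.0 CPM in Alox5-/- and 83.8, 85.5 and 83.4 CPM in WT (log2 change by edgeR -0.35, SE 0.03, adjusted p = 7.7e-07). The groups were well separated for both genes. Mat2b, the regulatory subunit, was 98.5 ± 1.16 CPM in Alox5-/- against 108 ± 4.53 CPM in WT, a fall of 1.09-fold (edgeR adjusted p = 0.00952). Ahcy, which hydrolyses S-adenosylhomocysteine, fell to 30.4 ± 1.79 CPM in Alox5-/-, against 34.9 ± 1.80 CPM in WT (edgeR adjusted p = 0.00756), with 68.7% of its 50-base words shared with Gm4737 and pseudogenes. Mtrr, which reactivates methionine synthase, was 37.0 ± 0.907 CPM in Alox5-/- against 39 ± 0.656 CPM in WT and was not called, although its groups did not overlap.

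Of the 4 branched-chain genes of the set, Bcat1, the cytosolic aminotransferase (chromosome 6, 144993835 to 145076184), was the 1 called. It was 106, 103 and 104 CPM in Alox5-/- and 72.9, 69.0 and 65.3 CPM in WT, 1.51-fold higher (log2 change by edgeR 0.60, SE 0.04, adjusted p = 1.63e-08). Bcat2, the mitochondrial form, was 74.6, 68.8 and 70.6 CPM in Alox5-/- and 72.0, 70.0 and 72.4 CPM in WT. The dehydrogenase subunits Bckdha and Bckdhb were 58.8 ± 1.09 and 9.69 ± 0.69 CPM in Alox5-/-, against 55.7 ± 3.70 and 9.71 ± 1.17 CPM in WT. The groups overlapped for these 3 genes. B3gnt8 on the opposite strand covers 61.7% of the exonic bases of Bckdha.

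Argininosuccinate synthase was lower. Ass1, which joins citrulline and aspartate on the way to arginine (chromosome 2, 31470207 to 31520672), was 10.5, 10 and 10.5 CPM in Alox5-/- and 18.5, 19.9 and 20.3 CPM in WT. The log2 fold change was -0.92 (SE 0.07, edgeR adjusted p = 2.13e-08), or 1.90-fold lower. The pseudogene Gm5424 shares 38.6% of its 50-base words.

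Polyamine synthesis was lower at spermidine synthase and at the enzyme that supplies its aminopropyl groups, while ornithine decarboxylase was not called. Srm, spermidine synthase, was 172, 167 and 171 CPM in Alox5-/- and 245, 227 and 249 CPM in WT, 1.41-fold lower (log2 change by edgeR -0.50, SE 0.04, adjusted p = 3.59e-08). Amd1, S-adenosylmethionine decarboxylase, was 28.4, 27.5 and 29.9 CPM in Alox5-/- and 41.2, 43.2 and 41.8 CPM in WT (log2 change by edgeR -0.56, SE 0.05, adjusted p = 2.1e-07). Amd1 is the least certain member, since 78.1% of its 50-base words recur in Amd2 and pseudogenes. Odc1, ornithine decarboxylase, was 239, 248 and 241 CPM in Alox5-/- and 233, 249 and 237 CPM in WT, with overlapping groups (log2 change by edgeR 0.01, SE 0.03, adjusted p = 0.746), and shares 24.3% of its 50-base words. Sms, spermine synthase, was 26.8 ± 1.48 CPM in Alox5-/- against 28.2 ± 1.95 CPM in WT and was not called.

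Compared per length, the largest levels belonged to the same few genes in both groups but in another order. In CPM per kilobase of exonic sequence, Alox5-/- cells had Asns at 271, Psat1 at 228, Shmt2 at 221, Mthfd2 at 171, Mat2a at 115 and Srm at 106. WT cells had Psat1 at 221, Shmt2 at 185, Asns at 177, Srm at 150, Mat2a at 148 and Mthfd2 at 147. The levels ran down to 0.186 in Alox5-/- and 0.139 in WT for Amt, above only Cbs, Gldc and Arg2 in both. Together the 42 genes held 6926 ± 28.3 CPM in Alox5-/- against 6238 ± 42.5 CPM in WT.

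**Figure D4:**
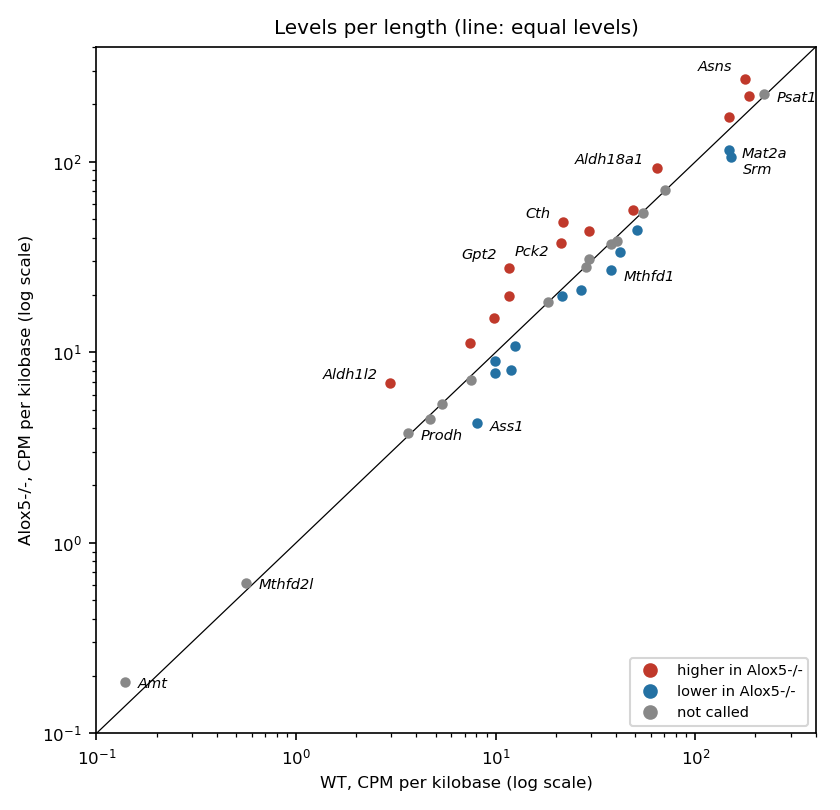
Mean level per length of each gene in Alox5-/- (y axis) against WT (x axis), in CPM per kilobase on log scales; the line marks equal levels. Asns is the highest point in Alox5-/- at 271 CPM per kilobase, and Gpt2, Cth and Aldh1l2 lie farthest above the line; Cbs, Gldc and Arg2 are below the axis range.

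Pairs of enzymes that do the same reaction, or lie in the mitochondrial and cytosolic arms of 1 pathway, were compared as ratios within libraries, and the groups did not overlap for 5 of 6 pairs, although no pair could pass 0.05 with 3 libraries a group. Such a ratio of counts does not depend on library scaling. The Pycr1 to Pycrl ratio was 2.06, 2.02 and 2.17 in Alox5-/- and 1.13, 1.16 and 0.94 in WT, a difference of 0.96 in mean log2 ratio. Bcat1 to Bcat2 was 1.42, 1.49 and 1.48 in Alox5-/- and 1.01, 0.985 and 0.903 in WT (difference 0.60). Mthfd1l to Mthfd1 was 1.33, 1.38 and 1.40 in Alox5-/- and 1.05, 1.01 and 0.964 in WT (difference 0.44). These ratios favoured the first-named enzyme in every Alox5-/- library over every WT library. Shmt2 to Shmt1 was 6.05, 6.87 and 6.16 in Alox5-/- and 5.55, 4.89 and 5.22 in WT (difference 0.29), highest in Alox5-/- replicate 2. Got2 to Got1 was 1.80, 1.58 and 1.69 in Alox5-/- and 2.71, 2.47 and 2.71 in WT (difference -0.64). For each of these 5 pairs the two-sided exact permutation p was 0.1, the smallest that 3 against 3 allows, or 0.12 adjusted over the 6 pairs. Mthfd2 to Mthfd2l, at 150, 144 and 144 in Alox5-/- and 135, 133 and 149 in WT, overlapped between the groups (exact permutation p = 0.3, adjusted p = 0.3).

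**Figure D5:**
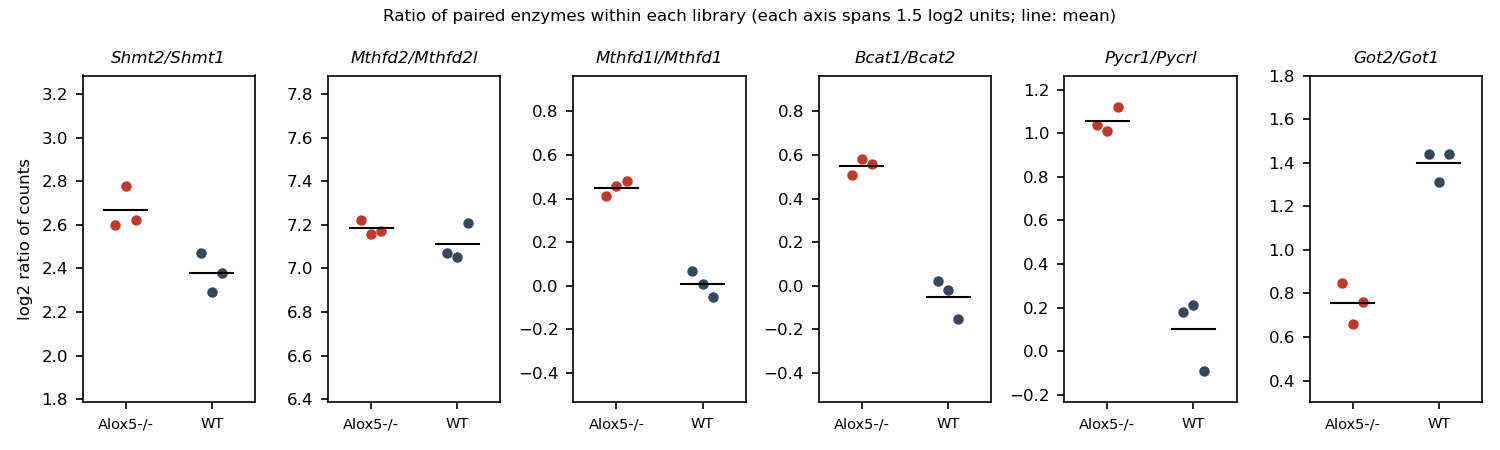
Log2 ratio of raw counts (y axes, each spanning 1.5 log2 units) for 6 enzyme pairs in each of the 3 Alox5-/- (red) and 3 WT (dark) libraries, with the group mean as a line. The groups separate in 5 panels, widest for Pycr1 over Pycrl (difference 0.96), and overlap for Mthfd2 over Mthfd2l.

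Other genes of the same pathways moved both ways. Of 21 further folate genes 15 were tested, and 4 of these rose, 8 fell and 3 were not called (80.0% called, against 53.8% of all tested genes). Their median log2 fold change was -0.17, against 0.00 over all tested genes. Dld, a subunit shared with the glycine cleavage system, rose 1.23-fold. Gart and Atic, which use formyl-tetrahydrofolate to build purines, fell to 219 ± 1.43 and 213 ± 0.224 CPM in Alox5-/-, against 288 ± 4.76 and 270 ± 0.781 CPM in WT. Aldh1l1, the cytosolic counterpart of Aldh1l2, was 8.15 ± 0.129 CPM in Alox5-/- against 13.4 ± 0.482 CPM in WT. Its log2 fold change of -0.72 (edgeR adjusted p = 6.28e-07) was opposite in sign to that of Aldh1l2.

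Of 31 further genes of amino acid synthesis and breakdown 24 were tested, of which 9 rose, 3 fell and 12 were not called (50% called, median log2 fold change 0.08), a share near the 53.8% of all tested genes. Srr, serine racemase, was 13.8 ± 0.825 CPM in Alox5-/- against 7.12 ± 0.354 CPM in WT (1.94-fold), and Asrgl1, an asparaginase-like enzyme, rose 1.42-fold and Ahcyl1, a relative of Ahcy, 1.27-fold. Sdsl, a serine dehydratase relative, had 30, 32 and 23 counts in Alox5-/- and 6, 3 and 4 counts in WT, passing the filter only through the Alox5-/- libraries; without it 8 of 23 rose. Mccc1, of leucine breakdown, fell 1.26-fold. Of 16 further polyamine and methionine salvage genes 14 were tested, of which 4 rose, 3 fell and 7 were not called (50% called, median 0.01). Sat1, which acetylates spermidine and spermine for breakdown or export, was 201 ± 2.89 CPM in Alox5-/- against 105 ± 2.95 CPM in WT (log2 change by edgeR 0.93, SE 0.03, adjusted p = 1.5e-11), opposite in sign to Srm and Amd1. Azin2, an antizyme inhibitor, and Oaz2, an antizyme that restrains Odc1, rose 1.5-fold and 1.40-fold, while the salvage enzymes Mtap and Enoph1 fell 1.35-fold and 1.27-fold.

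Of 16 tested genes listed for the integrated stress response, 11 were called higher and 3 lower (87.5% called, against 53.8% of all tested genes). Their median log2 fold change was 0.62. Those with the smallest p-values were Ddit3 (log2 fold change 2.57), Trib3 (1.88), Nupr1 (1.84), Chac1 (1.24) and Cebpg (0.72). The 3 called lower were the kinase genes Eif2ak1 (-0.12) and Eif2ak3 (-0.24) and the factor Atf5 (-0.19). The kinase genes Eif2ak2 and Eif2ak4 were not called. Amino acid transporters were called higher for 10 of 11 tested and lower for 1 (the same background being 26.8% higher and 27.0% lower), with a median of 0.43. Those with the smallest p-values were Slc6a9, a glycine carrier (1.49), Slc1a4, which carries serine and alanine (1.27), the cystine exchanger Slc7a11 (1.02), Slc3a2 (0.60) and Slc38a2 (0.60).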

How the data were processed

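The authors deposited raw read counts per gene for 6 libraries, 3 from Alox5-/- and 3 from WT cells. Per the submitters' processing notes, reads were counted with HTSeq on mm10, and the notes name DESeq2 too. The sources used here name no aligner, version, annotation release or strand setting, so overlapping antisense genes cannot be told apart. The 5 summary rows that name no gene entered neither library sizes nor tests; they hold reads that align to several places (24.4 to 24.8% of all reads), outside genes (9.10 to 10.2%), ambiguous (0.523 to 0.547%), not aligned (4.57 to 5.78%) or of low quality (0%). Gene counts were 59.95 to 60.86% of reads.

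From the counts, differential expression was computed across all genes with edgeR 4.0.16 in R 4.3.3: default expression filter, TMM scaling, quasi-likelihood F-test with no covariate, and Benjamini-Hochberg adjustment over 13705 genes (threshold 0.05). The SE is the log2 fold change divided by the square root of F. The biological coefficient of variation was 3.70%. Limma 3.58.1 (voom) and DESeq2 1.42.0 were alternatives. The fit was tested on simulated data. CPM values carry the TMM factors. Exonic lengths and positions are from GENCODE vM21 (mm10), as unions over all annotated transcripts, which can lower a level per length. Certainty of counting was described by the share of each gene's 50-base words that also occur in transcripts of other genes on either strand, and 8 of the 42 genes shared at least 20%. Floors at a count of 0 (3 counts per library) cover counting error only, because reads amplified without molecular identifiers are not independent molecules. Ratios of pairs used raw counts with 0.5 added, tested by a two-sided exact permutation test, and the plain ratios printed have nothing added.

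The 42 genes, the gene lists, the markers, the pairs and the motifs were chosen with earlier results of these data known. All 42 genes are named, with up to 5 called genes of smallest p from each further list, Alox5, Myc and Atf4; 1 gene of the folate list is not reported here. Markers named were chosen from their list after their values were seen, as were the 1.5-fold rule and its counts.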

Additional observations from a re-analysis of the deposited data

How the results depend on the processing

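Of the 26 called genes 25 kept their call and direction under each of the 13 alternatives that gave a value, the exception being Glul; Cbs gave none under the stricter filter (at least 5 CPM in 3 libraries), which left 1 gene lower by 1.5-fold. Genes called over the whole table numbered 6219 with that filter, 6284 with DESeq2 and 6583 to 7251 with a library left out. With a library left out, 13 to 14 members were higher and 12 to 14 lower, and 7 to 8 were higher and 2 to 3 lower by 1.5-fold.

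Genes that were not called could turn in sign. With upper-quartile scaling Shmt1 was 0.00, Glud1 0.01, Bcat2 0.03 and Bckdhb 0.02 on the log2 scale; with the stricter filter Glud1 was 0.00, Bcat2 0.01 and Bckdhb 0.01; with no filter Bcat2 was 0.01 and Bckdhb 0.00; and with DESeq2 size factors Bcat2 was 0.00. With a library left out Shmt1 was -0.05 to 0.02, Bcat2 -0.04 to 0.03, Bckdhb -0.1 to 0.05 and Odc1 -0.01 to 0.04. Psat1 was called higher without Alox5-/- replicate 2 (adjusted p = 0.0359) and with upper-quartile scaling (0.0468), Bckdha higher without WT replicate 3 (0.0286), and Got2 lower without WT replicate 2 (0.0316). The cause of these changes was not tested.

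Libraries with the same replicate number did not deviate together (correlations of -0.023, -0.077 and 0.022), so the numbers were not taken as pairs. With the replicate block 7029 genes were called, and 13 members were higher and 13 lower. Each pair ratio kept its direction with 5 added, with the replicate block, and with a library left out, where the differences were 0.86 to 1.01 (Pycr1/Pycrl), 0.55 to 0.63 (Bcat1/Bcat2), 0.41 to 0.48 (Mthfd1l/Mthfd1), 0.23 to 0.33 (Shmt2/Shmt1), -0.68 to -0.59 (Got2/Got1) and 0.04 to 0.12 (Mthfd2/Mthfd2l). Depth limits Cbs, Amt, Gldc and Arg2, with at most 31 counts in any library.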
